A study of Mus musculus with 14 samples.

Results

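Described here are 34 genes of cholesterol and fatty acid synthesis and of its control, across all 14 arrays of a study of T cell therapy in mouse melanoma. They were chosen by gene name as a pathway list, with earlier results of these arrays known, and no comparison between arms entered the rule. Each gene was read from 1 of its probes, selected on the highest mean level over the 14 arrays; the 34 genes have 64 probes. The array names 28478 genes, of which 17081 passed the filter on dim probes and were tested. All 34 passed it, and each was well above background on all 14 arrays.

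The tumours were B16F10, a melanoma line, grown in C57BL/6 mice, and every arm shares that line and strain. Untreated mice had no cell transfer. The CTL arm received cytotoxic T lymphocytes, activated in culture, CD90.1+ and specific for the melanocyte protein gp100. The remaining arms received the same cells and injections, on days 0 and 2, of anti-IFNg, an antibody that blocks interferon gamma, or of control rat IgG. Untreated and CTL tumours were taken on days 1, 3, 5 and 7 after transfer, and both antibody arms on days 3, 5 and 7. Each arm has 1 array per day, made from pooled RNA of 4 tumours (Untreated, CTL) or 3 tumours (antibody arms). A day's arrays share a slide, and every arm kept its place on the slide, so place and arm cannot be told apart. Comparisons are therefore means of 3 same-day differences (days 3, 5 and 7). Their SE and p-values rest on 1 spread per gene, pooled over the 4 arms and moderated across genes. It reflects variation between days and not between mice, and is not the spread of 1 comparison's own 3 differences. The arrays had 48.9% to 59.7% of spots well above background, no saturated spot, and a 75th percentile signal of 301 to 536, which is the reference for all levels. The RNA is from whole tumours, where fewer cells of a type and less RNA per cell cannot be told apart.

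Cells make cholesterol through the mevalonate pathway, then squalene and a series of sterols, and make fatty acids from acetyl-CoA, lengthening and desaturating them afterwards. Both routes are switched on by the SREBP transcription factors, encoded by Srebf1 and Srebf2, which are held in the endoplasmic reticulum by the Insig proteins and carried out of it by Scap when sterols are scarce. Ch25h makes 25-hydroxycholesterol, an oxysterol that macrophages produce during interferon responses and that keeps SREBPs inactive. Abca1 and Abcg1 export cholesterol and are targets of the LXR receptors, which oxysterols activate.

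RefSeq promoter windows (GRCm38.p6, 250 bases before the transcription start to 50 after it) were held for 26 of the 34 genes, with none for Scd1, Scd2, Sqle, Fdft1, Fdps, Fads1, Stard4 and Abcg1. The 150 bases before the start are printed for 5 of the genes that fell with CTLs and for Ch25h, 5′ to 3′ on the gene's own strand. These are not the 5 largest falls. Capitals mark, on either strand, the sterol regulatory element core TCACNCCAC, the E-box CACGTG, the NF-Y box CCAAT and the interferon gamma activated site TTCNNNGAA. The stretches lie at chr5:28071262-28071411, plus strand (Insig1), chr15:82147119-82147268, plus strand (Srebf2), chr5:4104698-4104847, minus strand (Cyp51), chr13:119690201-119690350, plus strand (Hmgcs1), chr3:129532236-129532385, plus strand (Elovl6) and chr19:34475149-34475298, minus strand (Ch25h).
Insig1: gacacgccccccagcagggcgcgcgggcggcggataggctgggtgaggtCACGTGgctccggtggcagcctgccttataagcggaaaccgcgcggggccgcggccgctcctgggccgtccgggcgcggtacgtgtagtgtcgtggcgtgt
Srebf2: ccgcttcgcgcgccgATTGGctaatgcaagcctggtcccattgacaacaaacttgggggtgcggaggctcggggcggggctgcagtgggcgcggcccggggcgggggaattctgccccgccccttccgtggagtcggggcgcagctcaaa
Cyp51: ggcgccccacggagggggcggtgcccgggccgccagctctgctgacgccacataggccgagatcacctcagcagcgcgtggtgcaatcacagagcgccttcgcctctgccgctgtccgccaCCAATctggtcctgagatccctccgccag
Hmgcs1: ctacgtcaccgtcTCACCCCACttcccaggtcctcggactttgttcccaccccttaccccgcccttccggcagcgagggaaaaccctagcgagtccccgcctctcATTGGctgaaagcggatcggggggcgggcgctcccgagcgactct
Elovl6: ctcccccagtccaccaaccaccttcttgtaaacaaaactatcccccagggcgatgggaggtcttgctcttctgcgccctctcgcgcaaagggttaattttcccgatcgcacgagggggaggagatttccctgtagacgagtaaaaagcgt
Ch25h: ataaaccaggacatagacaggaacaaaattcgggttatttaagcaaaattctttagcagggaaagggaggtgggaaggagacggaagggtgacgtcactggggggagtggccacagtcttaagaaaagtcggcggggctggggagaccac
Hmgcs1 holds the sterol element core and an inverted NF-Y box in this stretch, Srebf2 and Cyp51 an NF-Y box each, and Insig1 an E-box. The stretches of Elovl6 and Ch25h hold none of the 4 motifs.

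Over whole windows, the NF-Y box was found in 19 of 26 members (73.1%), against 41.1% of all 27025 gene symbols with a window. The E-box was found in 6 (23.1%, against 8.09%), namely Scap, Insig1, Hsd17b7, Sc5d, Dhcr7 and Abca1. The sterol element core was found in Hmgcs1 alone (3.85%, against 1.44%), and the interferon gamma activated site in Ebp alone (3.85%, against 9.55%). NF-Y boxes lay in Srebf1, Srebf2, Insig1, Hmgcs1, Mvk, Idi1, Lss, Cyp51 and Fasn among others. A match is a run of letters and not a measured binding site, and the motifs searched do not overlap one another.

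The first comparison set tumours with CTLs against untreated tumours on days 3, 5 and 7. Of the 34 genes 21 fell and 4 rose (limma, adjusted p under 0.05 over all genes tested). Of all genes tested, 21.3% fell and 10.1% rose. The median change was -0.50 on the log2 scale for the 34 genes and -0.10 for all genes. The 4 that rose are Ch25h, Abca1 and Abcg1, the oxysterol and export genes, and the sterol enzyme Hsd17b7. On 22 of the 34 every CTL array lay below every untreated array of these days, and on 4 above; over all genes this held for 28.4% and 12.4%. Without day 3 or without day 5 the count that fell was 4, and without day 7 it was 18. The counts that rose were 2, 0 and 2. Over all genes tested these fits called 419, 230 and 3116 lower and 674, 430 and 1996 higher.

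**Figure D1:**
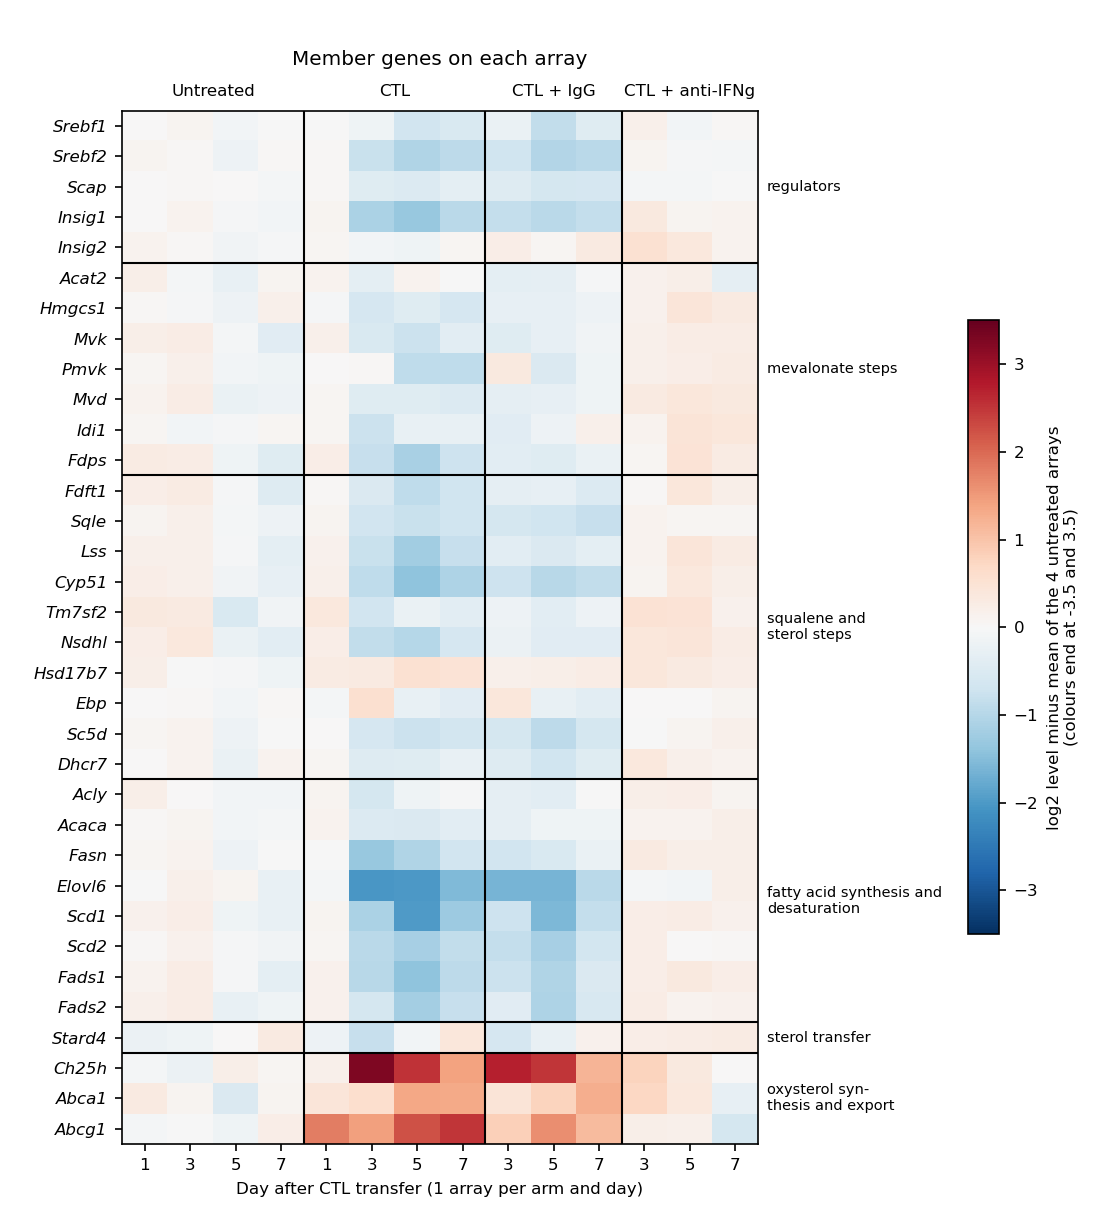
Heat map of the 34 genes (rows, grouped by role) on each of the 14 arrays (columns, by arm and day), as log2 level minus the mean of the gene's 4 untreated arrays. CTL and CTL with IgG arrays of days 3 to 7 are blue in most rows and red for Ch25h, Abca1 and Abcg1, while CTL day 1 is near white except for Abcg1.

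Among the regulators 4 of 5 fell with CTLs: Srebf1, Srebf2, Scap and Insig1. Levels are given as log2 signal relative to the 75th percentile of the array, in the order of days. Srebf2, the factor with most weight on cholesterol genes (probe at chr15:82032520-82032579, mm8), read 5.21, 5.17, 4.95 and 5.17 on untreated arrays and 5.16, 4.35, 4.07 and 4.21 on CTL arrays. With IgG it read 4.44, 4.11 and 4.18, and with the antibody 5.22, 5.08 and 5.05. CTL and IgG arrays of days 3 to 7 lay below every array of the other arms, and CTL day 1 lay among the untreated values. The change was -0.89 ± 0.09 (SE pooled over the arms, n = 3 days), or 1.85-fold lower (limma, adjusted p = 0.000539). Srebf1, the factor with most weight on fatty acid genes, read 5.04, 5.12, 4.93 and 5.01 untreated and 5.01, 4.88, 4.34 and 4.49 with CTLs. With IgG its levels were 4.80, 4.17 and 4.59, and with the antibody 5.21, 4.94 and 5.05. Its day 3 CTL array was close to the untreated range, and the change was -0.45 ± 0.11 (limma, adjusted p = 0.0203).

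Insig1, itself an SREBP target that retains the SREBP complex (probe at chr5:28408493-28408552), read 0.21, 0.32, 0.13 and 0.08 on untreated and 0.28, -0.93, -1.15 and -0.76 on CTL arrays. IgG arrays read -0.65, -0.75 and -0.65, and antibody arrays 0.51, 0.29 and 0.32. CTL and IgG arrays of days 3 to 7 lay below all arrays of the other arms, and the change with CTLs was -1.12 ± 0.11, or 2.17-fold lower (limma, adjusted p = 0.000481). Scap changed by -0.41 ± 0.09 (limma, adjusted p = 0.012). Insig2, the other Insig gene, had -0.02 with a 95% interval from -0.31 to 0.26. The falls of Srebf2 and Insig1 kept their call in all 13 alternative settings; those of Srebf1 and Scap kept it in 6 and 9. With each day left out in turn, Srebf1 lost its call every time, and Scap kept its call only without day 7.

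Of the 7 mevalonate steps 3 fell: Hmgcs1, which makes HMG-CoA (-0.51 ± 0.11), the isomerase Idi1 (-0.41 ± 0.12) and farnesyl diphosphate synthase Fdps (-0.79 ± 0.20). Mvk (-0.48), Pmvk (-0.56) and Mvd (-0.40) had adjusted p from 0.0528 to 0.0706 (limma). Acat2 had -0.01, with a 95% interval from -0.46 to 0.44; its probe also lists a transcript of Acat3, so the 2 genes cannot be told apart. All 7 values were below 0, and their median was -0.48. The Hmgcs1 and Idi1 calls were lost on leaving out any one of the 3 days, with values from -0.65 to -0.39 and from -0.49 to -0.29. The Fdps call was kept only without day 7, and its further probe had -0.05.

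Of the 10 squalene and sterol steps 7 fell and 1 rose. Cyp51, the lanosterol demethylase (probe at chr5:4089242-4089301), had levels of 1.46, 1.42, 1.09 and 0.94 untreated and 1.41, 0.35, -0.17 and 0.14 with CTLs. With IgG the levels were 0.51, 0.24 and 0.37, and with the antibody 1.31, 1.59 and 1.44. Every CTL and IgG array of days 3 to 7 lay below every array of the other arms. Its change with CTLs was -1.04 ± 0.16, or 2.06-fold lower (limma, adjusted p = 0.00307), and its 2 further probes had -0.91 and -1.03. Lss, which closes the sterol rings, fell by 0.87 ± 0.17, and the dehydrogenase Nsdhl by 0.73 ± 0.18. Squalene epoxidase Sqle fell by 0.69 ± 0.09, Sc5d by 0.65 ± 0.11, squalene synthase Fdft1 by 0.62 ± 0.18 and the last enzyme of the route, Dhcr7, by 0.37 ± 0.11. With each day left out in turn, Dhcr7 lost its call every time (-0.47 to -0.27). Lss, Nsdhl, Sqle, Sc5d and Fdft1 kept theirs only without day 7, and Nsdhl moved to -0.48 at its smallest. Cyp51 lost its call without day 5. Tm7sf2 (-0.31) and Ebp (-0.04) did not pass the test.

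Hsd17b7, a sterol ketoreductase, went the other way. It read 0.90, 0.70, 0.66 and 0.55 on untreated arrays and 0.98, 1.00, 1.25 and 1.18 on CTL arrays, which lay above all untreated arrays on each of the 4 days. Antibody and IgG arrays lay between 0.87 and 1.08. Its change was 0.51 ± 0.10 (limma, adjusted p = 0.0086), and its further probe had 0.31. The call was lost on leaving out any one day, with values from 0.45 to 0.61.

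The 8 fatty acid genes held the 2 largest falls, those of Elovl6 and Scd1, and 7 of the 8 passed the test, with a group median of -0.98. Elovl6, which lengthens palmitate to stearate (probe at chr3:129630352-129630411), read 2.29, 2.49, 2.42 and 2.06 on untreated and 2.24, 0.28, 0.30 and 0.76 on CTL arrays. IgG arrays read 0.70, 0.68 and 1.38, and antibody arrays 2.24, 2.21 and 2.53. CTL levels of days 3 to 7 were the lowest of all arms on each day, and IgG levels stood between them and the rest. The change was -1.88 ± 0.20, or 3.67-fold lower (limma, adjusted p = 0.000769), and the call held in all 13 alternative settings. Scd1, which desaturates stearate to oleate (probe at chr19:44448208-44448267), read 2.78, 2.86, 2.48 and 2.36 untreated and 2.70, 1.50, 0.62 and 1.34 with CTLs. Its IgG arrays read 1.89, 1.05 and 1.77, and its antibody arrays 2.86, 2.87 and 2.77. The lowest value was on CTL day 5, no CTL array of days 3 to 7 reached the untreated range, and the change was -1.41 ± 0.20 (limma, adjusted p = 0.00254).

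Scd2, the related desaturase whose probe lies 88.4 kb from that of Scd1 (mm8), had levels of 6.92, 7.02, 6.83 and 6.75 untreated and 6.94, 5.93, 5.73 and 6.03 with CTLs. With IgG it had 6.05, 5.73 and 6.23, and with the antibody 7.12, 6.89 and 6.93. The day 3 to 7 arrays of CTL and IgG lay apart from all others, with a change of -0.97 ± 0.12 (limma, adjusted p = 0.00152). Fads1, the delta-5 desaturase of polyunsaturated fatty acids, read 1.76, 1.92, 1.60 and 1.32 untreated and 1.81, 0.68, 0.25 and 0.74 with CTLs. Its IgG levels were 0.90, 0.60 and 1.14 and its antibody levels 1.89, 1.99 and 1.89, so the IgG array of day 7 was the closest to the untreated range. Fads1 fell by 1.06 ± 0.19. Fads2, the delta-6 desaturase 131.78 kb away, read 1.89, 1.98, 1.46 and 1.57 untreated and 1.87, 1.11, 0.54 and 0.90 with CTLs. With IgG it read 1.34, 0.63 and 1.17 and with the antibody 1.99, 1.84 and 1.87, so its CTL and IgG arrays of days 3 to 7 were the lowest. It fell by 0.82 ± 0.13.

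Fatty acid synthase Fasn read 6.96, 7.00, 6.71 and 6.86 on untreated arrays and 6.87, 5.57, 5.83 and 6.21 on CTL arrays, lowest on day 3. With IgG its levels were 6.20, 6.35 and 6.66, and with the antibody 7.19, 7.10 and 7.10. The change with CTLs was -0.99 ± 0.16 (limma, adjusted p = 0.00391), and the second Fasn probe had -1.09. Acaca, acetyl-CoA carboxylase, fell by 0.43 ± 0.09; its 3 dimmer probes had -0.10, 0.01 and 0.14. Acaca, Fasn, Scd2, Fads1 and Fads2 kept their calls only without day 7 when each day was left out, and Scd1 lost its call without day 3. Acly, which supplies cytosolic acetyl-CoA, had -0.20 with a 95% interval from -0.56 to 0.16. The sterol carrier Stard4 had -0.24 (limma, adjusted p = 0.35), and its 2 dimmer probes had -0.79 and -0.83.

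The oxysterol and export genes rose. Ch25h (probe at chr19:34539925-34539984) read -2.28, -2.42, -2.01 and -2.14 on untreated arrays and -2.04, 1.05, 0.32 and -0.79 on CTL arrays. IgG arrays read 0.52, 0.28 and -1.01, and antibody arrays -1.45, -1.88 and -2.20. Ch25h was highest on CTL day 3 and lower on each later day, and CTL day 1 was close to the untreated values. The change was 2.38 ± 0.35, or 5.22-fold (limma, adjusted p = 0.00287). With each day left out in turn it ran from 1.84 to 2.90, and it lost its call without day 5 (limma, adjusted p = 0.078). The call was also lost when only the CTL and untreated arrays were fitted.

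Abcg1, a cholesterol exporter (probe at chr17:30842647-30842706), read -2.93, -2.86, -3.01 and -2.62 untreated and -1.06, -1.43, -0.64 and -0.35 with CTLs. With IgG it read -2.02, -1.23 and -1.74, and with the antibody -2.64, -2.68 and -3.48. It differed from the other members in being high on CTL day 1, where its same-day difference was 1.87, against -0.18 to 0.24 for the other 33. Over days 3 to 7 it rose by 2.03 ± 0.33, or 4.07-fold (limma, adjusted p = 0.00388), a call lost without day 5 (adjusted p = 0.0909). Abca1, the related exporter to lipid-poor apolipoproteins, read -1.85, -2.08, -2.69 and -2.08 untreated and -1.74, -1.58, -0.83 and -0.84 with CTLs. Its IgG levels were -1.74, -1.39 and -0.90 and its antibody levels -1.44, -1.81 and -2.46; the antibody level was the highest of the 4 arms on day 3 and the lowest on day 7. Abca1 rose by 1.20 ± 0.36 with CTLs (limma, adjusted p = 0.0357), and lost the call on leaving out any one day (0.87 to 1.56).

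**Figure D2:**
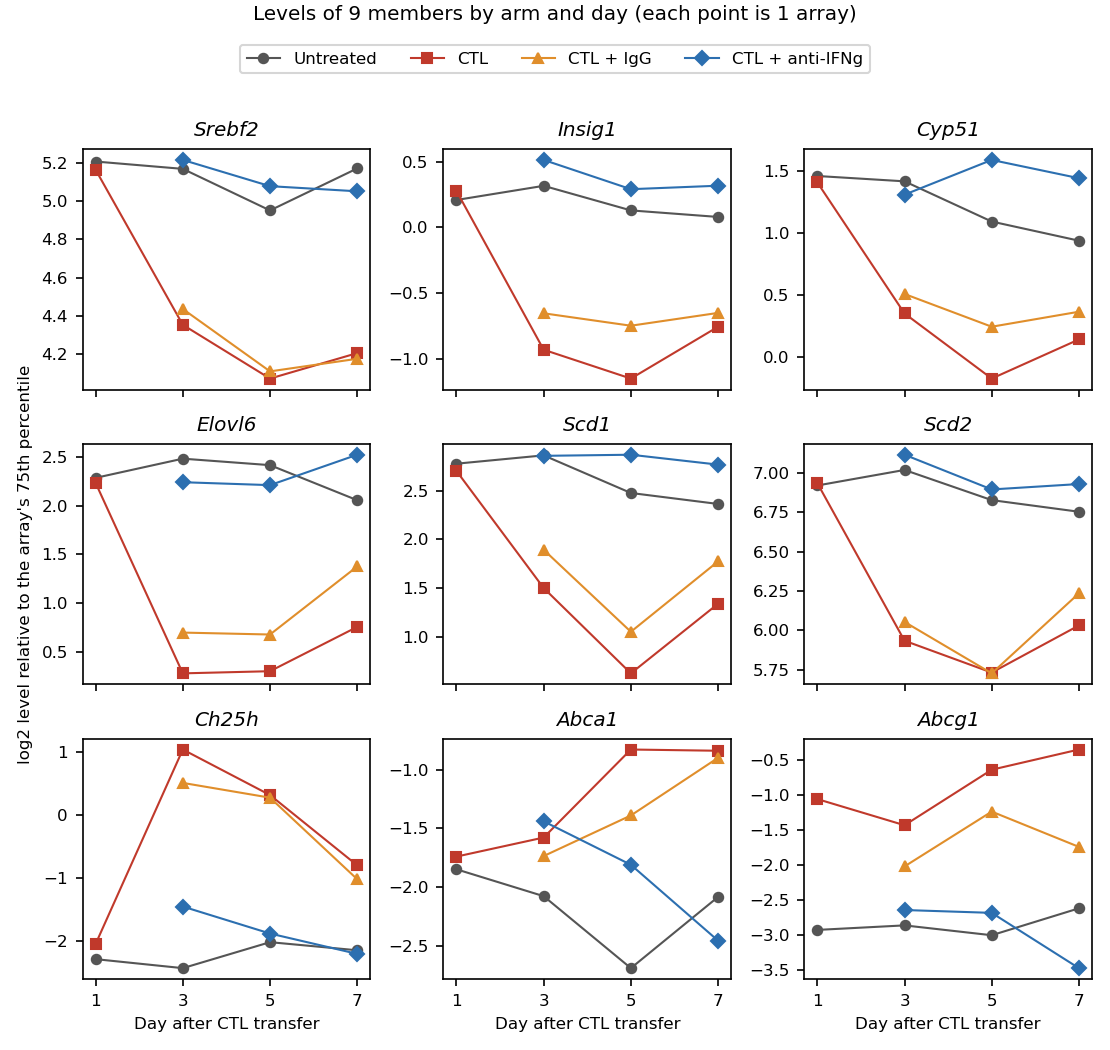
Log2 level relative to the array's 75th percentile (vertical) by day after transfer (horizontal) for 9 genes, 1 line per arm, each point 1 array. For Srebf2, Insig1, Cyp51, Elovl6, Scd1 and Scd2 the CTL and IgG lines run below the untreated and antibody lines from day 3; for Ch25h and Abcg1 they run above.

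The second comparison asked what blocking interferon gamma changed in tumours that all received CTLs, antibody against IgG on days 3, 5 and 7. Of the 34 genes 20 rose and 2 fell, against 6.56% and 5.92% of all genes tested. The median was 0.58, against 0.06 for all genes. On 25 genes every antibody array lay above every IgG array, and on 2 below; over all genes this held for 21.2% and 14.9%. The counts rest on few days. Without day 5 no member kept a call (limma, 6 and 44 genes called higher and lower in all). Without day 3 it was 3 higher (67 and 333 in all). Without day 7 it was 11 higher and 1 lower (627 and 754 in all). A fit that adds day 1 gave the same differences and called no member, where 1 gene was called higher and 1 lower in all.

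By role, 4 of 5 regulators rose with the antibody, with 3 of 7 mevalonate steps, 6 of 10 squalene and sterol steps and 7 of 8 fatty acid genes. Elovl6 rose by 1.41 ± 0.20, or 2.66-fold (limma, adjusted p = 0.00557), and Scd1 by 1.26 ± 0.20 (adjusted p = 0.00788). Cyp51 rose by 1.07 ± 0.16, Insig1 by 1.06 ± 0.11, Fads1 by 1.04 ± 0.19, Scd2 by 0.98 ± 0.12 and Srebf2 by 0.87 ± 0.09. Dhcr7, which had fallen by 0.37 with CTLs, rose by 0.74 ± 0.11, and Mvd, not called with CTLs, rose by 0.59 ± 0.13. Idi1 rose by 0.45 ± 0.12 although its antibody and IgG arrays overlapped. Fdps (0.62) and Fdft1 (0.57), which fell with CTLs, did not pass here (limma, adjusted p = 0.0813 and 0.0755).

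Ch25h fell by 1.77 ± 0.35 with the antibody, or 3.41-fold (limma, adjusted p = 0.0169), and Abcg1 by 1.27 ± 0.33 (adjusted p = 0.0407). Abca1 had -0.56, with same-day differences of 0.30, -0.42 and -1.56 on days 3, 5 and 7 and a 95% interval from -1.38 to 0.26. Hsd17b7 had 0.10 with a 95% interval from -0.13 to 0.33. Insig2, Acat2 and Ebp, which had no call in the first comparison, had 0.13, 0.24 and 0.13 and none here.

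The 2 comparisons share no array. Of the 34 genes 33 had opposite signs in them, against 78.1% of all genes tested, and 19 both fell with CTLs and rose with the antibody, against 5.43%. Ch25h and Abcg1 were the 2 members called the other way round, higher then lower, as were 5.27% of all genes. Across the 34 genes the changes had r = -0.98, and across all genes -0.79; genes are not independent replicates. Hsd17b7 was the gene with the same sign in both.

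**Figure D3:**
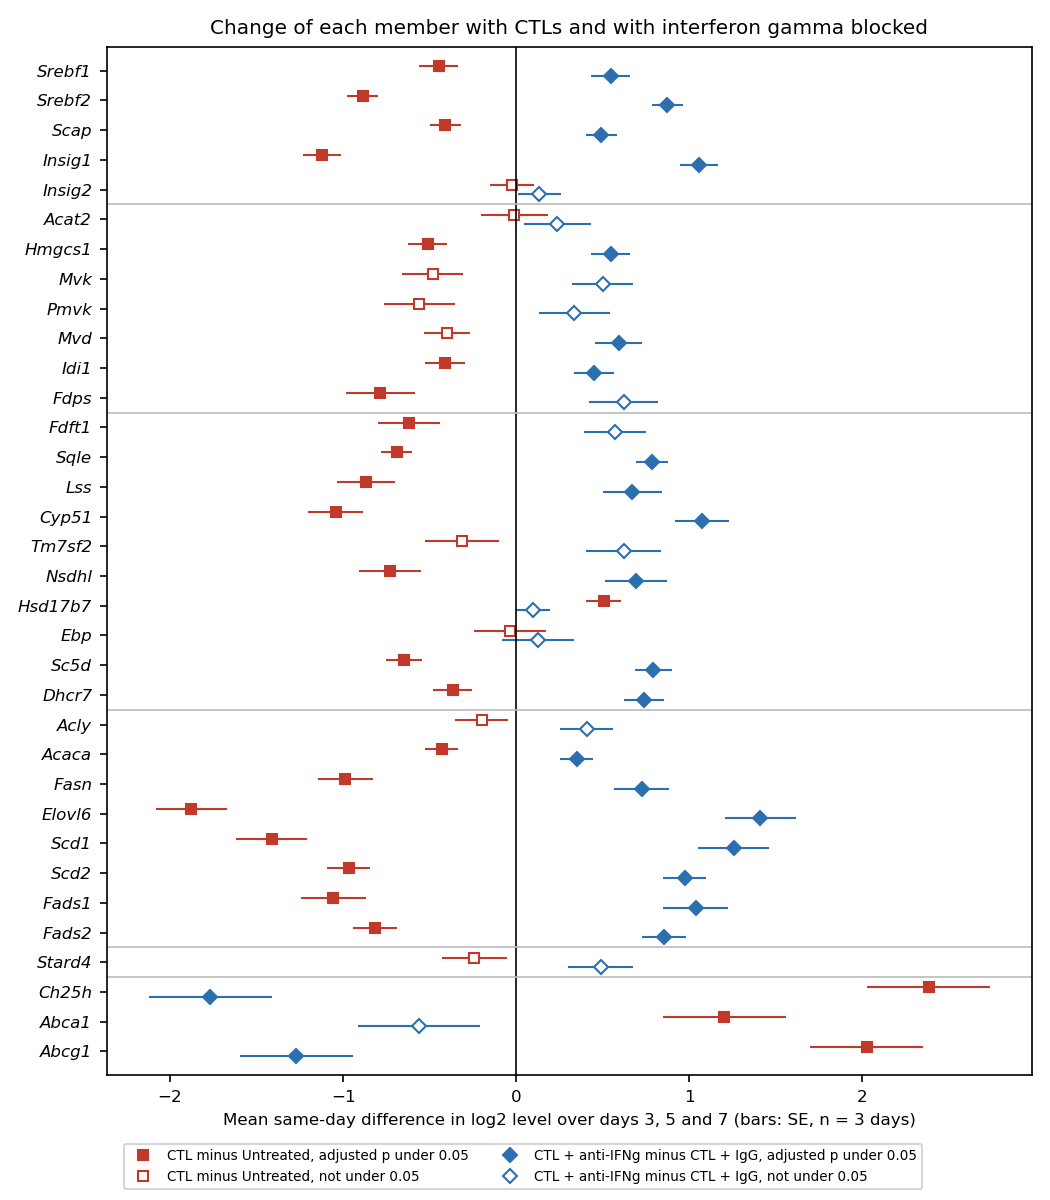
Mean same-day change over 3 days of each gene on the log2 scale (horizontal), for CTL minus untreated (squares) and anti-IFNg minus IgG (diamonds). Bars are the SE of the fit, pooled over the arms, and filled symbols passed the test. Most squares lie left of 0 and most diamonds right of it, and Ch25h, Abca1 and Abcg1 lie the other way round.

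IgG tumours, a second arm with CTLs, were set against the same untreated arrays. There 13 of the 34 genes fell and 2 rose, against 11.1% and 7.48% of all genes tested. Without day 3 or day 5 only Srebf2 kept a call, where 281 and 204 genes in all were lower and 566 and 309 higher. The fatty acid genes held 5 of the 13, with Elovl6 at -1.40, Scd1 at -0.99 and Scd2 at -0.86. The regulators held 4, with Srebf2 at -0.86 and Insig1 at -0.86. The sterol steps held the other 4: Cyp51 (-0.78), Sc5d (-0.69), Sqle (-0.67) and Dhcr7 (-0.51). No mevalonate step passed, with values from -0.25 to -0.08. Ch25h rose by 2.12 ± 0.35 and Abcg1 by 1.16 ± 0.33.

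Antibody tumours were then set against untreated tumours. None of the 34 genes passed in this comparison (limma), against 0.152% of all genes tested that rose and 0.00585% that fell. An unadjusted p under 0.05 was found for 1176 of all 17081 genes tested and for 6 of the 34. Values ran from -0.11 for Abcg1 to 0.49 for Tm7sf2, with a median of 0.26, against -0.03 for all genes. Of the 27 SREBP target genes (the enzymes, Insig1 and Stard4) all 27 were above 0, against 7320 of all 17081 genes tested. The 95% interval for Elovl6 was -0.46 to 0.48 and for Srebf2 -0.19 to 0.22, so that both exclude a fall of the size seen with CTLs alone. For Ch25h the interval ran from -0.46 to 1.17, with same-day differences of 0.98, 0.14 and -0.06 on days 3, 5 and 7. Over these days the antibody arm had the highest mean of the 4 arms for 29 of the 34 genes, and the CTL arm the lowest for 23. This order was not counted over all genes, so how far it is particular to the 34 is not known.

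On day 1, with 1 array per arm and so no test of its own, CTL and untreated arrays differed by less than 0.25 for 33 of the 34 genes. The difference between the later CTL change and that of day 1 was tested over all 14 arrays. No member passed, against 0.831% of all genes tested that were higher later and 0.181% lower. An unadjusted p under 0.05 was found for 2464 of all 17081 genes tested and for 15 of the 34 members. The nearest were Insig1 (-1.19 ± 0.22, limma, adjusted p = 0.0517), Srebf2 (-0.84 ± 0.18, adjusted p = 0.0844) and Elovl6 (-1.82 ± 0.41, adjusted p = 0.0994). For Abcg1 the difference was 0.15 ± 0.65.

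Ch25h was then set beside the 27 SREBP target genes day by day. With CTLs the same-day difference of Ch25h was 0.24 on day 1, 3.47 on day 3, 2.33 on day 5 and 1.35 on day 7. The median of the targets on these days was -0.04, -0.77, -0.70 and -0.44. So the day order was the same in both, with the largest rise of Ch25h and the deepest target median on day 3 and both smallest on day 1. This order with CTLs was not particular to Ch25h. The log2 of the summed signal of 6 interferon gamma response genes was 4.96, 9.30, 7.78 and 6.81 on CTL arrays. On untreated arrays it was 4.27, 3.91, 4.33 and 3.79. Targets below 0 with CTLs numbered 17, 25, 24 and 23 of 27 on days 1, 3, 5 and 7. Of all genes tested, 49.6%, 59.5%, 51.3% and 63.1% were below 0 on these days.

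In IgG tumours Ch25h differed from untreated by 2.94, 2.29 and 1.13 on days 3, 5 and 7, and the targets' median by -0.59, -0.28 and -0.16. With the antibody against IgG, Ch25h differed by -1.96, -2.16 and -1.18, and the targets' median by 0.60, 0.77 and 0.52. All 27 targets were above 0 on day 5, when 43.4% of all genes tested were below 0. In each of these 2 comparisons too, the day with the largest difference of Ch25h was the day with the largest median of the targets. These are 3 or 4 days each, the IgG and CTL comparisons share the untreated arrays, and the order was not tested. Abcg1 and Abca1 did not follow it, with CTL differences of 1.43, 2.37 and 2.27 and of 0.50, 1.86 and 1.25 on days 3, 5 and 7.

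**Figure D4:**
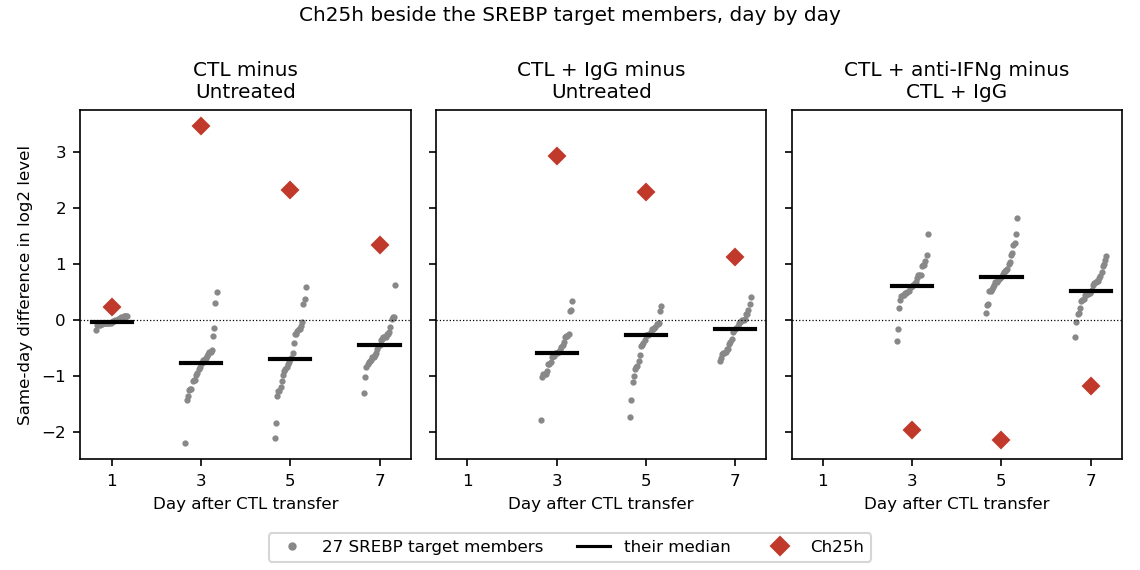
Same-day difference in log2 level (vertical) by day (horizontal) in 3 comparisons: dots are the 27 SREBP target genes, the black line their median, the red diamond Ch25h. Ch25h and the median of the targets lie on opposite sides of 0 on every day shown.

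Of the 34 genes 19 had more than 1 probe, with 30 further probes. Of 23 of these well above background on all 14 arrays, 20 had the sign of the chosen probe with CTLs and 21 with the antibody. The exceptions with CTLs were an Insig2 probe (0.33), an Acaca probe (0.01) and an Nsdhl probe (0.09). With the antibody they were the Acaca probes at -0.14 and -0.27. The Idi1 probe is placed on chromosome 2 in the files (mm8), where RefSeq has the gene on chromosome 13, and the Hmgcs1 probe on an unplaced piece of chromosome 13, so these positions are uncertain.

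For the lists and markers that follow, the shares of all genes tested were 10.1% higher and 21.3% lower with CTLs. With the antibody against IgG they were 6.56% and 5.92%, and with IgG against untreated 7.48% and 11.1%. A further list holds other SREBP pathway genes. Of 21 tested, 10 fell and none rose with CTLs, and 11 rose and none fell with the antibody. Among those with the smallest p, the acyl-CoA synthetase Acsl3 fell by 1.07, malic enzyme Me1 by 0.75 and the sterol oxidase Msmo1 by 0.73. Of 17 genes of LXR and cholesterol handling, 8 rose and 2 fell with CTLs, and 2 rose and 3 fell with the antibody. Nr1h3, which encodes LXR alpha, changed by 3.08 and -1.87 in the 2 comparisons, the lipid transfer protein Pltp by 2.30 and -1.82, and Arl4c by 2.07 and -1.45. Of 26 genes of fatty acid uptake, storage and oxidation 6 rose and 3 fell with CTLs, with Plin2, a lipid droplet coat protein, at 0.89. All 6 interferon gamma response genes rose with CTLs and fell with the antibody, with medians of 5.37 and -4.24.

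Markers of cell types moved beside these genes. Of 9 melanocyte markers, all well above background on every array, none passed in either comparison. The log2 of their summed signal (here called the sum) was taken on days 3 to 7. It was 10.6 to 10.8 with CTLs, 10.4 to 10.9 untreated, 10.6 to 10.7 with IgG and 10.6 to 10.8 with the antibody. Of 9 macrophage markers 7 rose with CTLs and 5 fell with the antibody; their sum was 4.43 to 4.59 untreated, 6.27 to 6.71 with CTLs, 5.88 to 6.80 with IgG and 5.18 to 6.02 with the antibody. Fcgr1 and Csf1r rose by 3.56 and 2.23. Of 9 T cell markers 8 rose and 1, Cd8b1, fell with CTLs, with Cd8a at 6.22. With the antibody against IgG 5 fell and 1, Cd8b1, rose. Their sum was 0.84 to 1.18 untreated, 2.34 to 3.34 with CTLs, 1.98 to 3.07 with IgG and 1.42 to 1.96 with the antibody. Cd8b1 was the brightest of them on every untreated array and so weighs most in that sum. With the antibody against untreated, 2 rose and none fell (0.152% and 0.00585% of all genes): Cd8a by 4.03 and Cd3d by 4.28. Cd8a was well above background on 9 of 14 arrays and Cd3d on 12.

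All 8 proliferation markers fell with CTLs, Mki67 by 1.32 and Top2a by 0.74, while 2 of 8 passed with IgG against untreated, and 1 rose with the antibody; their sum was 6.76 to 6.91 untreated, 5.70 to 6.20 with CTLs, 5.98 to 6.62 with IgG and 6.68 to 6.88 with the antibody. Of 6 endothelial markers 3 fell with CTLs, Emcn by 1.38, while Pecam1 (0.44) and Tek (0.37) were above 0 and did not pass. With IgG against untreated 4 fell, and with the antibody against IgG 4 rose, with sums of 0.52 to 1.27 untreated and -0.18 to -0.02 with CTLs, and of -0.83 to -0.52 with IgG and 0.15 to 0.19 with the antibody. For fat and skin glands, which make much lipid, Adipoq was well above background on 1 of 14 arrays, Scd3 on 1, Trp63 on 1, and Cidea, Awat2, Elovl3 and Krt79 on none. Other markers of the same lists were detected more often: Cfd on 13 arrays, Cidec on 10, Plin1 on 5, and Lep and Retn on 3 each. Krt5 and Krt14 were well above background on all 14 arrays and Krt10 on 9. None of 5 adipocyte markers passed with CTLs, and 1, Cidec, fell with the antibody against IgG (-1.67, limma, adjusted p = 0.0238). All 3 keratins tested rose with CTLs, Krt14 by 1.49, but none passed with IgG against untreated (Krt14 -0.09, Krt5 -0.27, Krt10 0.29). The part of these cell types in the changes of the 34 genes was not tested.

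**Figure D5:**
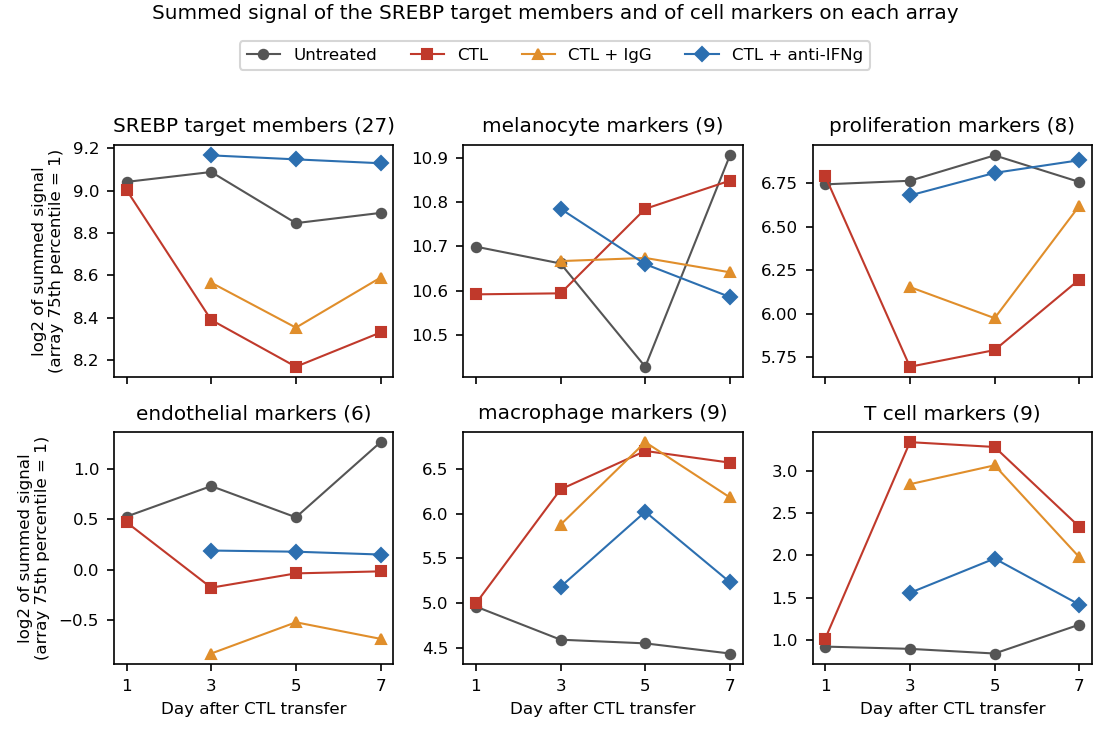
Log2 of the summed signal of each list (vertical, relative to the array's 75th percentile) by day (horizontal), 1 line per arm and 1 array per point. The SREBP target genes and proliferation markers are lower in the CTL and IgG arms from day 3, macrophage and T cell markers are higher, and melanocyte markers show no separation of the arms.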

How the data were processed

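One-colour Agilent arrays were scanned, and the authors deposited each spot's intensity. Agilent Feature Extraction made these values; its version is 9.5 in the submitters' processing notes and 9.5.3.1 in the headers. A further deposited table holds log2 values of the same arrays; it differed from the log2 intensity by a constant per array and served as an alternative. The processed signal is background-subtracted, per the file headers. From it log2 was taken and the 75th percentile of each array subtracted; control spots were left out and spots of 1 probe averaged. Probes were named by the files' accession through RefSeq (24375 of 41174, of which 4783 received a newer symbol) and otherwise by the files' own names. Genes well above background on at least 3 arrays were kept.

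The 12 arrays of days 3, 5 and 7 were fitted with limma 3.58.1 in R 4.3.3, arm and day as terms (6 residual degrees of freedom), with Benjamini-Hochberg adjustment over 17081 genes and a threshold of 0.05. The later CTL change against that of day 1 was fitted on all 14 arrays. Day is the block because the arrays of a day share a slide; of 18 same-day pairs 12 had deviations correlated above 0.1 (median 0.130, from -0.045 to 0.509). Each arm has 1 array per day, so the number of arrays limits precision, and nothing separates animals. The fit was tested on simulated data. Alternatives were background correction (normexp, offset 50), quantile and median scaling, other filters, averaged probes, the arrays of 2 arms only, all 14 arrays, no day term, and leaving out each day. All 34 genes are named. Values per array are given for the 10 largest changes in either comparison and for Ch25h, Abca1, Abcg1, Srebf1, Srebf2, Insig1, Scd1 and Scd2; of the other lists, the text names the 2 to 4 genes with the smallest p. Hsd17b7, the called genes of the closing section and single markers beyond these were singled out after their values were seen. The members, the other lists and the tests were chosen with earlier results of these data known. Figures were drawn with matplotlib 3.10.9 in Python 3.11.15.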

Additional observations from a re-analysis of the deposited data

Results flagged for a closer look

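Among 68 combinations of a gene with the untreated or CTL arm (4 arrays each), 3 had 1 array apart from the other 3 by Dixon's criterion; chance alone gives about 1 in 20, and the 4 arrays of an arm are 4 different days. For Mvd the CTL array of day 1 read 3.26, above the 2.71 to 2.77 of the later CTL days. For Sqle the CTL array of day 1 read 4.61, above 3.75 to 3.84. For Srebf2 the untreated array of day 5 read 4.95, below the 5.17 to 5.21 of the other untreated days.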

How the results depend on the processing

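Each gene called with CTLs or with the antibody against IgG kept its sign in all 13 alternatives. Leaving out each day in turn gave 4 to 18 of the 34 genes lower and 0 to 2 higher with CTLs. The antibody against IgG had 0 to 11 higher and 0 to 1 lower. IgG against untreated had 1 to 10 lower and 0 to 2 higher, and the later CTL change against day 1 had 0 to 2 lower. Over all genes these fits gave 230 to 3116 lower with CTLs. They gave 6 to 627 higher with the antibody, 204 to 1523 lower with IgG, and 0 to 48 lower in the later CTL change. Fitting all 14 arrays gave 3 higher and 10 lower with CTLs, 2 higher and 5 lower with IgG, and 0 and 0 for the antibody against IgG. The antibody differences were the same, with a larger spread. Over all genes this fit gave 822 higher and 987 lower with CTLs, 767 and 933 with IgG, and 1 and 1 for the antibody. Using only the 2 arms compared gave 1 higher and 5 lower with CTLs, 0 higher and 2 lower with IgG, and 7 higher and 1 lower for the antibody. Over all genes it gave 577 and 257, 600 and 457, and 320 and 596. With normexp the counts were 1 higher and 5 lower with IgG, against 611 and 319 of all genes, and 9 higher and 1 lower for the antibody. With no filter on dim probes they were 1 higher and 10 lower with IgG, and 12 higher and 1 lower for the antibody. Over all 28465 genes then tested these were 956 and 1049, and 450 and 694. Without the replicate block (no day term) 15 of the 34 genes were lower in the later CTL change. Of all 17081 genes 897 were lower and 612 higher there. For the members this fit gave 4 higher and 19 lower with CTLs, 18 and 2 with the antibody, and 2 and 11 with IgG. Over all genes these were 1514 and 3430, 918 and 808, and 1122 and 1629. The later change had 1 member lower with the stricter filter, with averaged probes and with quantile scaling, against 35, 29 and 41 of all genes. The cause was not tested. Over all genes, normexp gave 2064 higher and 2538 lower with CTLs, against 1727 and 3635, and 139 and 503 with the antibody, against 1121 and 1012; median scaling gave 1294 and 882 there. Median scaling moved the median of all genes with CTLs from -0.10 to -0.24 and with the antibody from 0.06 to 0.16, and normexp moved the former to 0.08. With median scaling 22 members were lower and 3 higher with CTLs, and 18 higher and 2 lower with the antibody. Each arm has 1 pooled array per day, so the spread between mice is not measured.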

Other observations

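Genes of fatty acid handling outside synthesis did not move as the synthesis genes did. Of the 26 tested for uptake, storage and oxidation 6 rose with CTLs: the fatty acid transporter Cd36 by 1.64, the lipases Lpl by 1.15, Mgll by 1.38 and Lipe by 0.84, Plin2 by 0.89 and the receptor Pparg by 0.68. Among those that fell were Dgat2, which completes triglycerides (-0.97), and Hadha, an enzyme of mitochondrial oxidation (-0.31). With IgG against untreated, Plin2 (0.82) and Lipe (0.66) passed as well. Cd36 (0.72), Lpl (0.42), Mgll (0.90), Pparg (0.27), Dgat2 (-0.68) and Hadha (-0.003) did not pass there. With the antibody against IgG, Plin2 fell by 0.76 and the lipase Pnpla2 by 0.87 (limma, adjusted p = 0.0072 and 0.0481). Carnitine transfer by Cpt1a had 0.33 with CTLs and did not pass.

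Among genes of cholesterol handling, the fall of the HDL receptor Scarb1 (-0.84) and of the LXR target Lpcat3 (-0.74) with CTLs stood beside rises of Apoc1 (0.81), Apoc2 (2.01), Mylip (0.85) and Soat1, which esterifies cholesterol (0.61). With IgG against untreated, Scarb1 (-0.69) and Mylip (0.94) passed as well. Lpcat3 (-0.45), Apoc1 (0.16), Apoc2 (1.55) and Soat1 (0.16) did not pass there. Scarb1 and Lpcat3 rose with the antibody, by 0.80 and 0.70, while Apoc1, Apoc2, Mylip and Soat1 did not pass. The oxysterol enzymes Cyp27a1 and Cyp7b1 were well above background on none of the 14 arrays.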
